A study of Mus musculus with 7 samples.

Results

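The heat-shock protein genes were followed through the cells of the mouse mammary gland. They were chosen by name, as the rows Hspa1a, Hspa1b, Hspa8, Hsph1, Dnajb1, Dnaja1, Hsp90aa1, Hspb1, Hspd1 and Hspe1 of the count matrix, 10 of its 27998 genes, and each had 1 row. The matrix holds 13684 single cells from 3 young mice (Young A, B and C, 3 to 4 months old) and 4 aged mice (Aged A, B, C and D, 13 to 14 months old), all virgin females of a mixed FVB, 129 and C57BL/6J background taken at diestrus. Cells of the #4 glands, without lymph nodes, were released by 1.5 h of enzyme digestion at 37 °C and captured with 10× Chromium 3′ chemistry, 1 library per mouse. Every RNA molecule is counted by its unique molecular identifier (UMI), and the comparison asks how the genes differ between the 13 deposited cell types and between the ages.

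Heat-shock proteins are chaperones, which bind unfolded proteins and help them fold, refold or be degraded. Hsp70-type chaperones (Hspa1a and Hspa1b, the stress-inducible copies, and Hspa8, the constitutive one) work with J-proteins that deliver substrates and stimulate their ATPase (Dnajb1 and Dnaja1) and with nucleotide exchange factors such as Hsph1. Hsp90aa1 matures kinases and steroid receptors, Hspb1 is a small heat-shock protein that holds unfolded proteins without ATP, and Hspd1 and Hspe1 form the folding chamber of the mitochondrial matrix and its lid. Heat, oxidation and tissue dissociation are known to raise the inducible members through the transcription factor HSF1, which binds repeats of the bases GAA in alternating direction, called heat-shock elements.

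These elements are visible in the promoters. RefSeq windows from 250 bases before to 50 bases after a transcript start (GRCm38.p6) were found for 8 of the 10 members, 13 windows in all; none was matched for Hspa8 and Hsp90aa1. A core of 2 inverted repeats, GAANNTTC or TTCNNGAA (each its own reverse complement, so both strands are searched at once), lay in 8 of the 13 member windows, those of 7 of the 8 members, against 15.1% of all 32851 windows. The 8 are not independent, since Hspa1a and Hspa1b have near-identical windows and Hspd1 and Hspe1 share 1 element. Below are 4 windows, shown because Hspa1a, Hspb1 and Dnaja1 carry most of the age differences that follow and because the element of Hspe1 is also that of Hspd1; capitals mark the cores.
Hspa1a, chr17:34972107-34972406, minus strand: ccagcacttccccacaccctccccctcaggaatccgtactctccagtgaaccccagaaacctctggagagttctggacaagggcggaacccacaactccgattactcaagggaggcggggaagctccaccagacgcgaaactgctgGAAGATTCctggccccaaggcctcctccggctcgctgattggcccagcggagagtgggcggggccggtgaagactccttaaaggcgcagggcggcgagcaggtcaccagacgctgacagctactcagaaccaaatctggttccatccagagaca
Hspb1, chr5:135887669-135887968, plus strand: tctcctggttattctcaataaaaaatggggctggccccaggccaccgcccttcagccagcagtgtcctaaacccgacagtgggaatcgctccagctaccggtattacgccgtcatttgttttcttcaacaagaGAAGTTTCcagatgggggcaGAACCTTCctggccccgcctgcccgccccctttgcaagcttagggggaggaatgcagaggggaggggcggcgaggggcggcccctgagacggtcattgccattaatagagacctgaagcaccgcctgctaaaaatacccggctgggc
Dnaja1, chr4:40722218-40722517, plus strand: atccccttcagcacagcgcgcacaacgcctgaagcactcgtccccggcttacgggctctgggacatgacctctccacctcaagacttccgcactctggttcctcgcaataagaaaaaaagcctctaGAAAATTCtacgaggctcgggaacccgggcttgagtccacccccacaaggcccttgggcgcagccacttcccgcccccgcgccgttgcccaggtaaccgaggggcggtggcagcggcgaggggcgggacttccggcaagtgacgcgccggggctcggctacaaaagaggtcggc
Hspe1, chr1:55087898-55088197, plus strand: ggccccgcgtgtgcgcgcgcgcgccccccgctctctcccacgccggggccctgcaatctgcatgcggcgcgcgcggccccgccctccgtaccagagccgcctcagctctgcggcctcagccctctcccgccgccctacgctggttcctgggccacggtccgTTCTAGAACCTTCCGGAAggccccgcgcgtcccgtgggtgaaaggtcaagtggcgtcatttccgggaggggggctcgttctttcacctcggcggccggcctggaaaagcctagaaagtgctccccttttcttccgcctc

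The core of Hspa1a began 104 bases before the start. Hspa1b, the neighbouring copy on chromosome 17, had its core at the same distance, and the 2 windows differed at 4 of 300 bases. Hspb1 had 2 separate cores, 117 and 97 bases before its start, an arrangement of at least 2 cores found in 1.96% of all windows. Dnaja1 had 1 core, 124 bases before the first of its 3 annotated starts and in neither of the other 2 windows. In Hspe1, 3 overlapping cores formed an alternating run, and the same bases read on the other strand begin 144 bases before the second of 2 starts of Hspd1. The 2 genes point away from each other and their annotated 5′ ends overlap by 112 bases. A run of at least 3 alternating repeats (GAANNTTCNNGAA or TTCNNGAANNTTC) occurred in windows of Hspd1, Hspe1 and Hsph1 and in 0.603% of all windows. No core was found in the 2 windows of Dnajb1. These matches describe letters only; binding was not measured.

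**Figure D1:**
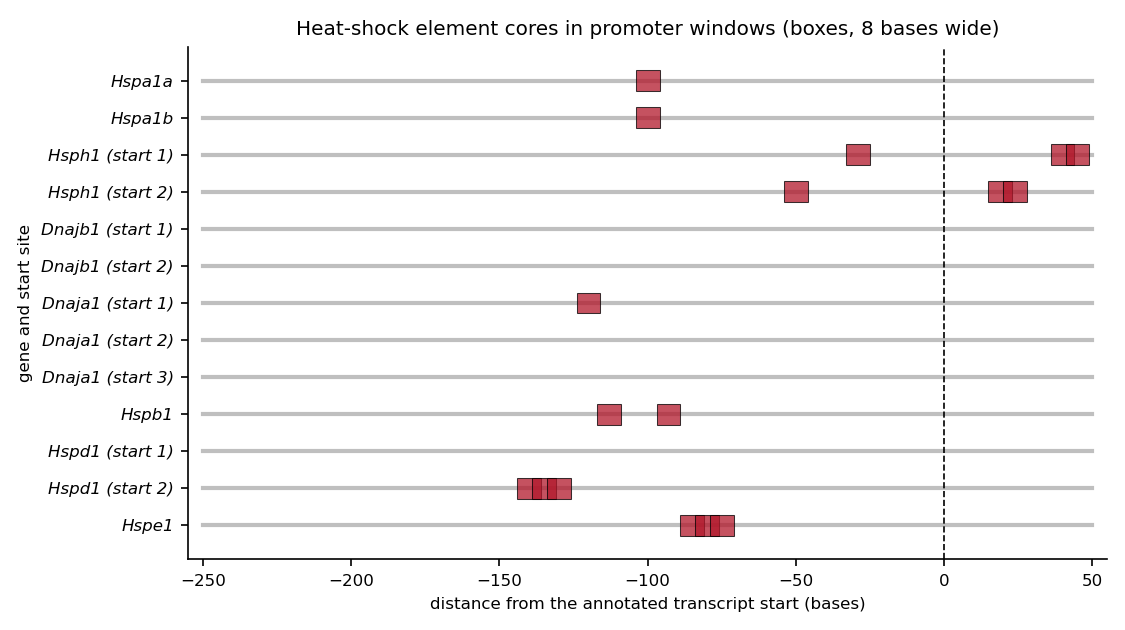
Heat-shock element cores (boxes, 8 bases wide) in the 13 promoter windows of 8 members, by distance in bases from the annotated transcript start (dashed line); grey lines are the windows. Hspa1a and Hspa1b hold 1 core each at the same distance, Hspd1 and Hspe1 a run of 3 overlapping cores, and both starts of Dnajb1 none.

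Hspa1a (chr17:34969190-34972156) and Hspa1b (chr17:34956436-34959238) are separated by 9951 bases and encode nearly the same protein, so reads could be split between them. In GENCODE vM21, 47.1% of the 100-base windows of the Hspa1a transcript also occur in Hspa1b, but none of the 401 windows in the last 500 bases, where a 3′ library reads, does. Hspa1a made up 90.0% to 92.5% of the UMIs of the pair in AV cells over the 7 mice and 85.3% to 94.2% in fibroblasts. Hspa1b was the rarer RNA in every mouse in both types. Of the other genes with age differences, Hspb1 lies at chr5:135887919-135889563, Dnaja1 at chr4:40722150-40737149, Hspa8 at chr9:40800984-40810087 and Hspd1 at chr1:55077835-55088243 (GRCm38).

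Libraries held 6652599 to 16999625 UMIs and 1264 to 2865 cells. The median cell held 4759 to 5253 UMIs in young and 5582 to 7110 in aged mice, and mitochondrial RNA was 3.18% to 3.68% of the median cell in young and 2.48% to 2.82% in aged mice, without overlap in either measure. Of the 13583 distinct cell barcodes, 101 occurred in more than 1 mouse. Each of 38 marker genes was highest in the cell type it marks once the HS-AV cells, which share HS markers, were set aside; 3 of the HS markers were higher in HS-AV than in HS cells (Prlr 1443 and 1349 CPM, Pgr 109.8 and 94.4 CPM, Esr1 81.4 and 40.2 CPM). Each age was captured in its own libraries, so an effect of age and one of handling a library cannot be told apart, and the part of the mitochondrial share, of depth and of the digestion in the levels below was not tested.

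Levels are given as CPM, the UMIs of a gene per 1000000 UMIs of all cells of a type in a mouse, as the mean ± SD over mice, pooled over both ages unless an age is named. They are a description, since the cell types were clustered on expression. The 10 genes together made up between 0.194% (Mb macrophages of Aged C) and 1.59% (AV cells of Aged D) of all UMIs in the 8 cell types with at least 3 cells in every mouse. Alveolar (AV) luminal cells, pericytes, vascular endothelial cells and aged fibroblasts were at the upper end, and hormone-sensing (HS) luminal cells, with 0.352% to 0.484%, near the lower.

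**Figure D2:**
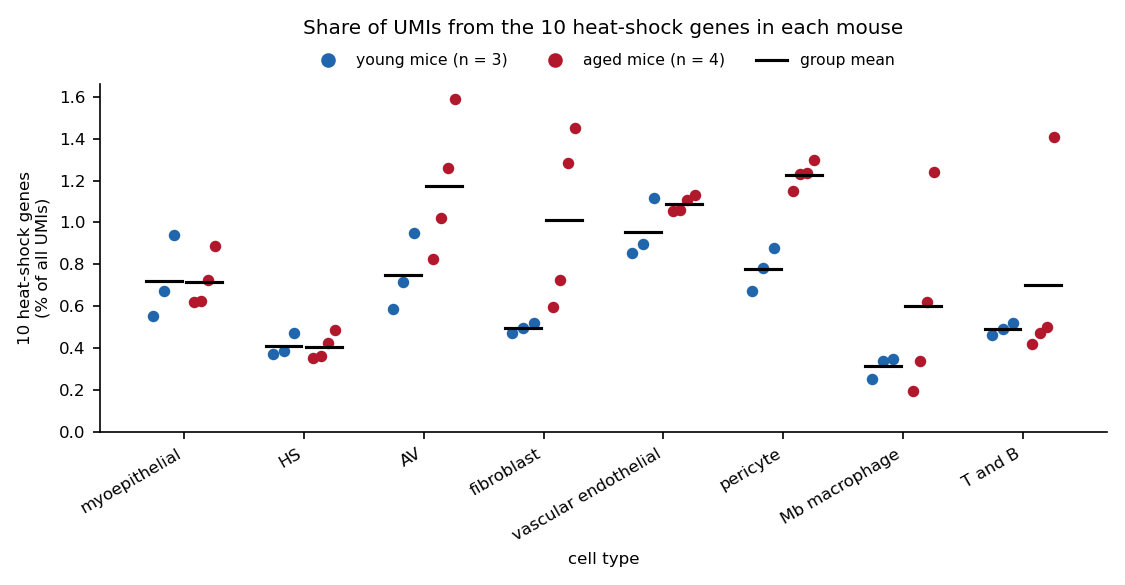
Share of all UMIs of a cell type that came from the 10 heat-shock genes (vertical axis, %), for each young (blue) and aged (red) mouse in 8 cell types; black lines are group means. All 4 aged pericyte samples (1.15% to 1.30%) lie above the young ones (0.673% to 0.879%). So do the aged fibroblast samples (0.595% to 1.45%, beside 0.473% to 0.519% in young mice), and in the other types the ages overlap. Aged B stands apart among Mb macrophage samples and Aged D among T and B cell samples.

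Among these 8 types the pooled means of the inducible genes were highest in AV cells. Hspa1a averaged 2081 ± 1606 CPM there (SD, n = 7), 5.81 times its mean in myoepithelial cells (358 ± 271 CPM), and AV cells were above myoepithelial, HS, pericyte and vascular endothelial cells of the same mouse in 7 of 7 mice. Fibroblasts followed with 1794 ± 2187 CPM, a place that came from the aged mice. In young mice fibroblasts averaged 299 ± 105 CPM (n = 3), below AV (1151 CPM), vascular endothelial (760 CPM), pericyte (510 CPM), HS (420 CPM) and myoepithelial cells (417 CPM), whereas in aged mice they averaged 2915 ± 2376 CPM (n = 4) beside 2779 ± 1855 CPM in AV cells. Hspa1b averaged 189 ± 127 CPM in AV cells, its highest mean at either age. The SD of Hspa1a was as large as its mean or larger in fibroblasts, Mb macrophages and T and B cells, so its place in the order differed from mouse to mouse.

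Hspb1 varied most between cell types. It averaged 3294 ± 1583 CPM in vascular endothelial cells and 131 ± 162 CPM in Mb macrophages, a 25.2-fold difference that went the same way in 7 of 7 mice. In young mice AV cells had the highest mean (1898 CPM, beside 1712 CPM in vascular endothelial cells), and in aged mice vascular endothelial cells (4480 CPM). Pericytes (2294 ± 811 CPM) and AV cells (2239 ± 818 CPM) came next over both ages, and fibroblasts, with 363 ± 255 CPM, were 9.08-fold below vascular endothelial cells.

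The constitutive Hspa8 spread less. It ranged from 4677 ± 1148 CPM in pericytes to 1649 ± 297 CPM in HS cells, 2.84-fold, but pericytes were above vascular endothelial cells in 3 of 7 mice only. In young mice vascular endothelial cells had the highest mean (4858 CPM, beside 3717 CPM in pericytes), and in aged mice pericytes (5398 CPM, beside 4061 CPM). Hsp90aa1 was highest in myoepithelial cells, the contractile outer layer of the ducts (1412 ± 335 CPM), and 2.97-fold lower in HS cells. The type with the highest mean of each J-protein differed between the ages as well. Mean Dnaja1 was highest in myoepithelial cells in young mice (655 ± 89.1 CPM) and in fibroblasts in aged mice (368 ± 107 CPM), where myoepithelial cells had 257 ± 37.3 CPM. Aged pericytes had 328 ± 51.7 CPM, and over both ages pericytes were above fibroblasts in 5 of 7 mice. Mean Dnajb1 was highest in pericytes in young mice (601 ± 89.4 CPM) and in fibroblasts in aged mice (920 ± 605 CPM, beside 665 ± 297 CPM in aged pericytes). HS cells held the lowest pooled mean of Hspa8, Hsph1, Dnajb1 and Hsp90aa1.

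The mitochondrial pair differed least. Hspe1 lay between 348 ± 148 CPM in fibroblasts and 181 ± 29.4 CPM in vascular endothelial cells, 1.92-fold, and Hspd1 between 151 ± 14.1 CPM in myoepithelial cells and 57.6 ± 33.3 CPM in Mb macrophages. In young mice fibroblasts had 298 CPM of Hspe1, below T and B (431 CPM), myoepithelial (388 CPM) and HS cells (381 CPM). Over both ages fibroblasts were above HS cells in 3 of 7 mice. Over all 10 genes, only 2 of 70 pairs of neighbouring cell types in these orders went the same way in all 7 mice, so most neighbours cannot be ranked against the spread between mice.

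**Figure D3:**
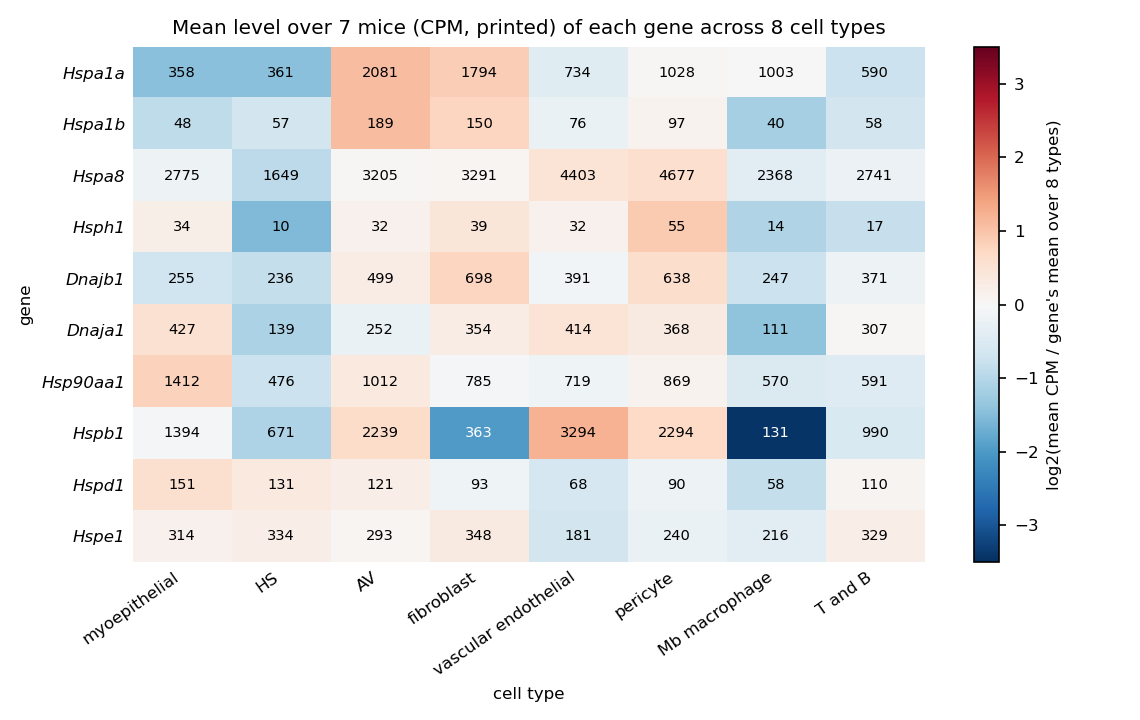
Mean CPM over 7 mice (printed) of the 10 genes (rows) in 8 cell types (columns); the color gives the log2 ratio to the gene's own mean over the 8 types, red higher and blue lower, so rows are to be compared within themselves. Hspb1 runs from 131 CPM in Mb macrophages to 3294 CPM in vascular endothelial cells, and HS cells are blue for most genes; the means pool both ages.

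The other 5 types had fewer cells and were described only. Hspa1a was higher in Ma macrophages (901, 2314 and 633 CPM in Young A, B and C; no aged mouse had 3 such cells) than in the Mb macrophages of the same 3 mice (59.7, 65.2 and 399 CPM). Lymphatic endothelial cells, 28 in all, had 564 and 581 CPM of Hspa1a in 2 young mice and 8892, 970 and 3907 CPM in Aged B, C and D.

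Detection was described beside the levels. Thinned to 2000 UMIs per cell, Hspa8 was found in 92.3% to 99.7% of the AV cells of a mouse and Hspa1a in 35.3% to 93.1%. Unthinned, the shares were 98.8% to 100% and 49.3% to 95.6%. No cell type that lacks Hspa1a or Hspa8 is known, which leaves free RNA without a reference for them. Hspb1, rare in Mb macrophages, was found in 16.8% of these cells in young mice and 18.1% in aged mice on average after thinning (29.0% and 36.1% before), against 90.8% and 94.7% (97.6% and 99.1%) of vascular endothelial cells. Its mean level in Mb macrophages was 216 ± 234 CPM in young and 66.6 ± 58.3 CPM in aged mice. The aged sums there hold 3 to 9 cells, with shares of 0% to 50% after thinning, so whether level and detection go together cannot be said. The inducible copy was also spread unevenly: in AV cells, the tenth of cells with the most Hspa1a held 29.97% to 71.6% of its thinned UMIs, against 21.1% to 26.2% for Hspa8. Within AV cells Hspa1a went with Hspa1b (median Spearman rho 0.455 over 7 mice) and with Hspb1 (0.392) from cell to cell, at equal depth; the median over all 45 pairs of members was 0.112, and cells of a mouse share a library.

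For age, UMIs were summed per mouse and cell type and tested with edgeR's quasi-likelihood test, with TMM scaling, in 8 cell types. A gene was called at an adjusted p under 0.05 over all genes tested in the type and a change of at least 1.5-fold. Of 80 combinations of a gene and a type, 69 had enough counts; 10 were called higher in aged mice and 2 lower, in 6 genes and 6 types. Over all genes the 8 types gave 5661 calls. The share of genes called higher ran from 0.219% in T and B cells to 14.7% in vascular endothelial cells. The share called lower ran from 0.233% in Mb macrophages to 14.8% in myoepithelial cells. The share of each type is given with its members below. The log2 differences below are on the TMM scale, and the CPM beside them are not scaled further. With library totals in place of TMM the median of all genes moved by -0.27 in AV, -0.36 in vascular endothelial and -0.34 in Mb macrophage cells, and the calls became 7 higher and 4 lower, 63.6% higher in place of 83.3%.

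Fibroblasts, which make the collagen-rich stroma, had the largest called difference. Hspa1a was 419, 253 and 223 CPM in Young A, B and C and 1153, 5195, 595 and 4718 CPM in Aged A, B, C and D. All aged values lay above all young ones, with Aged B and D far above the other 2. The log2 difference was 3.40 ± 0.62 (SE, adjusted p = 0.00896). Hspa1b, at 30.9 to 49.0 CPM in young mice, reached 70.7, 408, 50.6 and 393 CPM in the aged mice, with the same 2 mice on top (log2 difference 2.56 ± 0.56, adjusted p = 0.0237).

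These 2 were the only calls among the 10 members in fibroblasts, where 2.07% of 5513 genes were called higher and 1.11% lower. The ages did not overlap for 3 of the 10, beside 16.9% of the 5513 genes. Each of the 10 had a positive difference, with a median of 0.99 against 0.00 over all genes. Dnajb1 (1.30 ± 0.44, adjusted p = 0.126), Hsph1 (1.36 ± 0.42, 0.0987) and Hspb1 (1.32 ± 0.37, 0.0734) missed the threshold. The aged sums rest on few cells, 121, 41, 15 and 17, and on 669, 903, 47 and 516 UMIs of Hspa1a. The call of Hspa1a held without any 1 mouse (adjusted p 0.00258 to 0.0459) and under 12 of the 13 other alternatives. That of Hspa1b was lost without Young A, Young B, Young C, Aged B or Aged D (0.0525 to 0.07997) and held under 9 of the 11 others. Of 13 immediate-early genes, which dissociation is also known to raise, 1 was called higher and 1 lower there. RNA of 34 marker genes of other types was 0.0399% to 0.0781% of the UMIs of young fibroblasts and 0.0456% to 0.214% of those of aged ones, highest in Aged D; its part in these values was not tested.

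Pericytes, the contractile cells on small vessels, had the most calls. Of 9 members tested 4 were higher and none lower, against 7.19% and 4.61% of 2601 genes. The ages did not overlap for 3 of the 9, beside 26.6% of the 2601 genes. Hspb1 was 1015, 1832 and 1591 CPM in young and 3024, 2797, 2691 and 3105 CPM in aged mice. No aged value overlapped a young one (log2 difference 1.14 ± 0.21, adjusted p = 0.00455), and the call held without any 1 mouse.

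Hspa1a in pericytes was 354, 555 and 622 CPM in young and 615, 1950, 1159 and 1938 CPM in aged mice. Aged A fell within the young range and the other 3 above it (1.65 ± 0.35, adjusted p = 0.00848; 0.0542 without Young A). Hspa1b rose by 1.44 ± 0.41 (adjusted p = 0.0336) and Hspa8 by 0.70 ± 0.18 (adjusted p = 0.0215), from 3379 to 4257 CPM in young to 4280 to 6561 CPM in aged mice. Both calls were less stable: that of Hspa1b was lost without Young A, Young B, Young C, Aged B or Aged D (adjusted p 0.0675 to 0.149), and that of Hspa8 without Young A or Young B, while without Aged A its difference fell just short of 1.5-fold (0.58). Hspd1 (0.74 ± 0.25, adjusted p = 0.0691) and Hsp90aa1 (0.76 ± 0.24, 0.0511) were also higher on average without passing. Of 13 immediate-early genes, 4 were called higher and 1 lower in these cells. RNA of 35 marker genes of other types was 0.222% to 0.262% of the UMIs of young pericytes and 0.199% to 0.366% of those of aged ones, 7 to 19 of the 35 being at 0 in a mouse. It was highest in Aged D (0.366%) and Aged B (0.328%), which also had the most Hspa1a. The endothelial markers Pecam1 and Cdh5 averaged 501 and 325 CPM in pericytes, beside 695 and 524 CPM in vascular endothelial cells, and the part of such RNA in these calls was not tested.

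In vascular endothelial cells, the lining of blood vessels, the small heat-shock protein moved and the inducible Hsp70 genes did not pass the test. Hspb1 was 1501, 2188 and 1447 CPM in young and 4997, 5204, 3885 and 3832 CPM in aged mice. Every aged mouse was far above every young one (1.73 ± 0.18, adjusted p = 1.76e-05). It was called under each of the 20 alternatives run, of which dropping the fold minimum and asking for at least 10 cells could not lose the call. Hspd1 was called at the edge of the fold limit, with 74.8, 54.4 and 53.6 CPM in young and 68.9, 67.0, 90.0 and 64.1 CPM in aged mice. The groups overlapped on this scale, and the call (0.59 ± 0.18, adjusted p = 0.0276) was lost without Young B, Young C or Aged C. Of the 13 other alternatives it held under 7, and library totals (0.22, adjusted p = 0.369) was among those where it was lost.

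Hspa1a in the same cells differed by 0.26 ± 0.38 (adjusted p = 0.642), with 419 to 1178 CPM in young and 271 to 975 CPM in aged mice. Dnaja1 was lower, from 481, 608 and 590 CPM to 322, 307, 286 and 304 CPM, without overlap. Its difference of -0.53 ± 0.14 (adjusted p = 0.0138) missed the fold limit, and it was called with library totals (-0.88), where all genes shift down. So 2 of 10 members were called higher and 0 lower by edgeR, where 14.7% of 7864 genes were called higher and 12% lower. An unadjusted p under 0.05 was found for 4 members, beside 3198 of the 7864 genes. The ages did not overlap for 3 members, beside 44.8% of the genes.

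In myoepithelial cells Dnaja1 fell. It was 577, 752 and 636 CPM in young and 273, 270, 283 and 201 CPM in aged mice, so that the highest aged value was well below the lowest young one (-1.24 ± 0.18, adjusted p = 0.000142). The gene was called lower under each of the 20 alternatives run, of which dropping the fold minimum and asking for at least 10 cells could not lose the call. The share of myoepithelial cells with a Dnaja1 UMI, after thinning, was 63.1% to 70.4% in young and 30.3% to 40.0% in aged mice, and 82.5% to 90.7% and 56.5% to 65.6% without thinning. Hspb1 went the other way, from 627, 1391 and 860 CPM to 1878, 1547, 2120 and 1334 CPM, with Aged D inside the young range (0.97 ± 0.24, adjusted p = 0.00669; 0.0611 without Young A). These were the calls among 10 members, beside 12.8% of 6740 genes called higher and 14.8% lower. The ages did not overlap for 2 of the 10, beside 34.8% of the 6740 genes.

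Hspa1a did not pass in myoepithelial cells, where Young B held 914 CPM against 162 and 175 CPM in Young A and C and 220 to 506 CPM in the aged mice. Its sign depended on the mice and cells used: the difference was -0.19 ± 0.45 (adjusted p = 0.794) in all mice, 0.99 (adjusted p = 0.0366) without Young B, and 1.29 (adjusted p = 0.0117) in cells with under 5% mitochondrial RNA.

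In AV cells the constitutive Hspa8 rose. It was 2335, 2705 and 1978 CPM in young and 3639, 3760, 4086 and 3932 CPM in aged mice. The aged values lay close together above the young range (0.99 ± 0.17, adjusted p = 0.00882; 0.0601 without Young C). Hspa1a had a larger but uneven difference of 1.55 ± 0.52 (adjusted p = 0.107), from 702, 1768 and 983 CPM to 1051, 3043, 1751 and 5271 CPM, where the groups overlapped. It passed with DESeq2 (adjusted p = 0.0329), with no filter on low counts (adjusted p = 0.0453) and without Aged A (adjusted p = 0.047). In all, 1 of 10 members was called higher and 0 lower by edgeR, against 2.9% and 3.26% of 11012 genes. An unadjusted p under 0.05 was found for 5 members, beside 2550 of the 11012 genes. The ages did not overlap for 1 member, beside 25.6% of the genes. The median difference was 0.70, against 0.02 over all genes. All 10 were positive with TMM, but Dnaja1 (-0.17), Hspd1 (-0.06) and Hspe1 (-0.02) were below 0 with library totals. RNA of 33 marker genes of other types was 0.0494% to 0.0538% of the UMIs of young AV cells and 0.0115% to 0.0181% of those of aged ones; its part in these values was not tested. Immediate-early genes had 0 of 13 called by edgeR.

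HS cells showed 1 call, again Dnaja1. It was 180, 226 and 144 CPM in young and 109, 89.5, 114 and 109 CPM in aged mice, without overlap (-0.69 ± 0.18, adjusted p = 0.0484). This call was lost without any 1 of the 7 mice (adjusted p 0.0687 to 0.167). Of 10 members 0 were called higher by edgeR and 1 lower, beside 3.93% and 2.33% of 8457 genes. An unadjusted p under 0.05 was found for 2 members, beside 1992 of the 8457 genes. The ages did not overlap for 2 members, beside 22.0% of the genes.

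Macrophages and lymphocytes gave no call among the members. In Mb macrophages 4 members could be tested and 1 had an unadjusted p under 0.05, beside 180 of 859 genes. Of these 859 genes, 0.931% were called higher and 0.233% lower. In T and B cells 6 members could be tested and 0 had an unadjusted p under 0.05, beside 61 of 457 genes. Of these 457 genes, 0.219% were called higher and 0.438% lower. Each aged sum of these types rests on 3 to 19 cells. Hspa1a was 59.7, 65.2 and 399 CPM in young Mb macrophages and 78.6, 5843 and 574 CPM in Aged A, B and D. In Aged C it had no UMI, which allows up to 116 CPM, so that 1 aged mouse carried the difference (3.60 ± 1.62, adjusted p = 0.243).

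**Figure D4:**
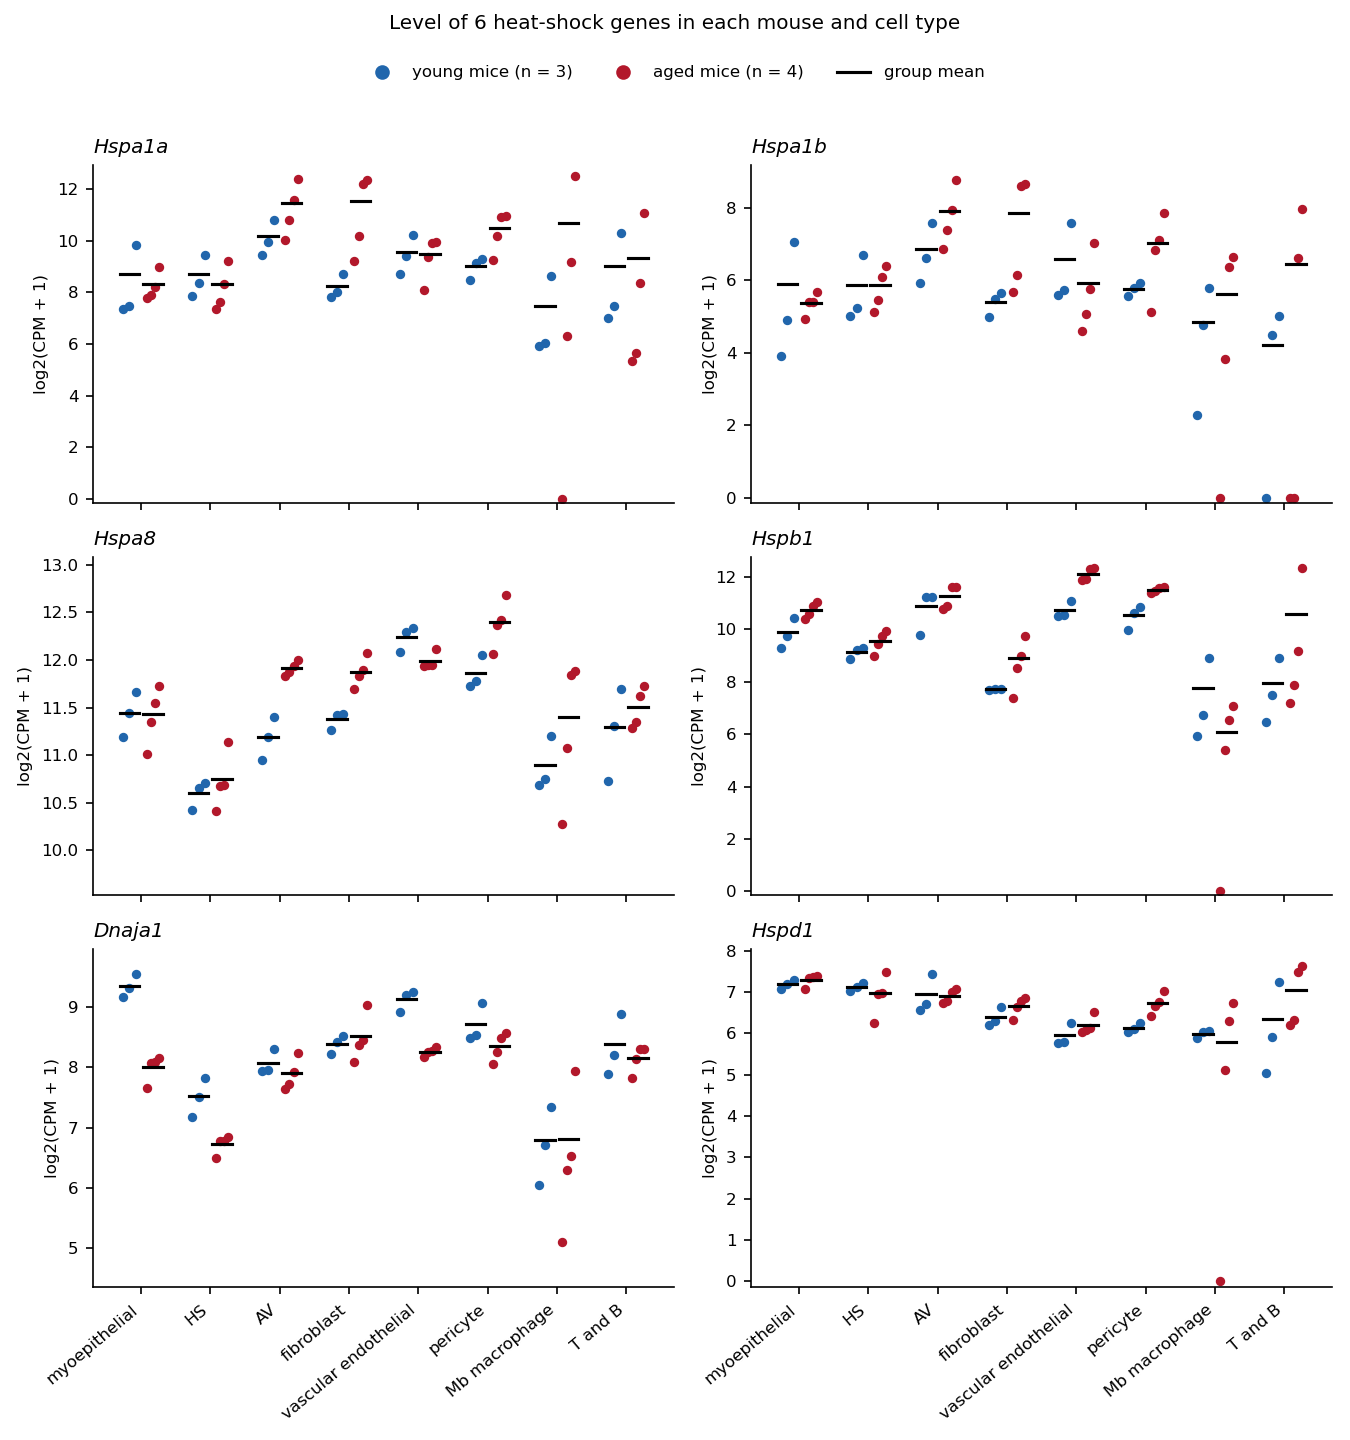
Level of Hspa1a, Hspa1b, Hspa8, Hspb1, Dnaja1 and Hspd1 in each young (blue) and aged (red) mouse, as log2(CPM + 1) on axes that differ between genes, in 8 cell types; black lines mark the mean CPM of a group. Aged mice separate from young ones for Hspb1 in vascular endothelial cells and pericytes and for Dnaja1 in myoepithelial, HS and vascular endothelial cells. They also separate for Hspa8 in AV cells, fibroblasts and pericytes, for Hspd1 in pericytes, and for Hspa1a and Hspa1b in fibroblasts, where aged Hspa1a spreads widely. Of all genes tested, the ages separate for 44.8% in vascular endothelial cells, 26.6% in pericytes, 34.8% in myoepithelial cells, 25.6% in AV cells, 22.0% in HS cells and 16.9% in fibroblasts.

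Whether the age differences themselves vary between the 8 types was tested in 1 fit over all sums, with a term for each mouse and each type. Of the 10 members, 3 were called (adjusted p under 0.05), against 24.7% of 10352 genes. They were Hspa1b (F = 4.53, adjusted p = 0.00430), Dnaja1 (F = 4.204, adjusted p = 0.00680) and Hspa1a (F = 2.99, adjusted p = 0.0404). Hspb1, called higher in 3 types and not in the other types, was just above the limit (adjusted p = 0.0524), so its difference is not shown to depend on the type. The call of Hspa1b was lost without Young B (adjusted p = 0.122), that of Dnaja1 without Young A (0.125) or Aged D (0.0737), and that of Hspa1a without Young A (0.0861), Young B (0.192), Aged A (0.0630) or Aged B (0.0565). The number called without 1 mouse ran from 2 to 7, the latter without Aged C.

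**Figure D5:**
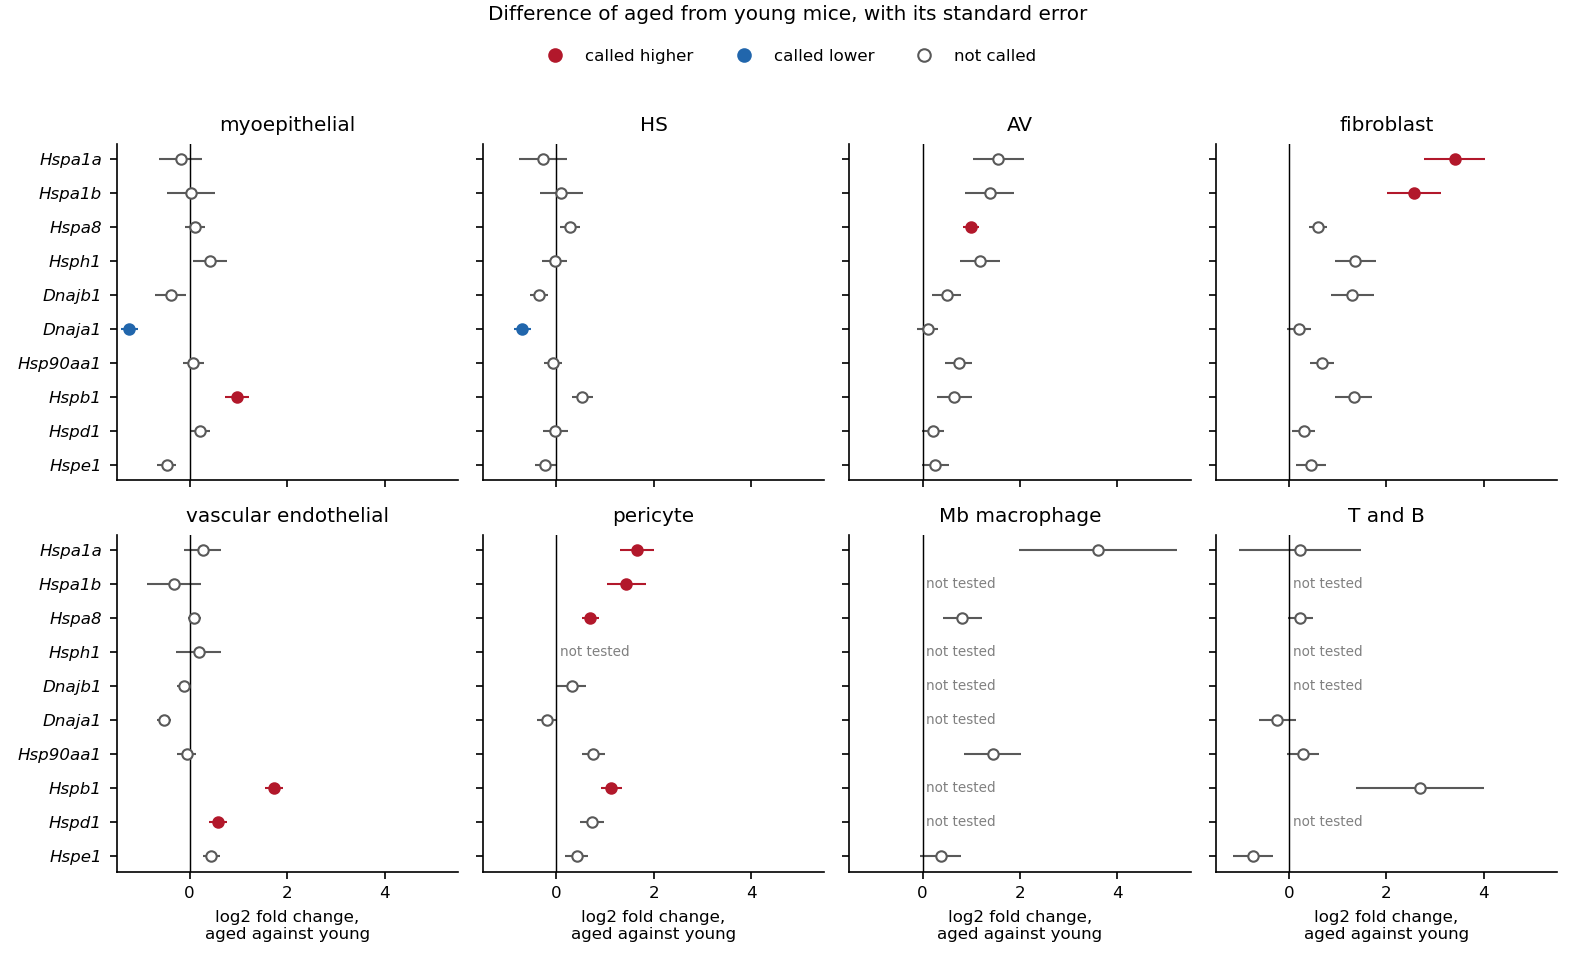
Log2 difference of aged from young mice (horizontal axis) with its standard error for 10 genes in 8 cell types, from edgeR; filled red and blue points are called higher and lower and open points are not called. Pericytes hold 4 filled points, and Hspb1 is filled in myoepithelial cells, vascular endothelial cells and pericytes.

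Animals differed across cell types as well. Over the 80 combinations, Aged D was the highest mouse in 20, Young B in 19 and Aged B in 18, while Young A was the lowest in 22 and Aged A in 17. A young mouse was thus among the 3 that most often stood highest.

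The wider chaperone network was read from a list of 68 further genes, 62 of them tested in at least 1 type. In 318 tests 29 were higher and 7 lower, in 17 and 6 genes. Of all genes tested, 0.219% to 14.7% were called higher and 0.233% to 14.8% lower, depending on the type. With library totals these became 12 higher and 17 lower, 41.4% higher in place of 80.6%, so no direction of the list as a whole can be given. Vascular endothelial cells had 11 of 56 higher and 3 lower and myoepithelial cells 9 of 54 higher and 4 lower, against the shares of all genes given above.

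In myoepithelial cells Dnajb2, a J-protein that targets proteins for degradation, rose by 2.02 ± 0.42 (adjusted p = 0.00213), and the mitochondrial Hsp70 gene Hspa9 by 1.29 ± 0.20 (0.000213), from 138 to 162 CPM in young to 299 to 355 CPM in aged mice. Serpinh1, the collagen chaperone of the endoplasmic reticulum, went from 295 to 430 CPM down to 96.4 to 162 CPM (-1.24 ± 0.21, adjusted p = 0.000439).

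In vascular endothelial cells Dnaja2, a close relative of Dnaja1, rose by 1.42 ± 0.14 (adjusted p = 1.2e-05), from 88.2 to 102 CPM to 180 to 212 CPM, while Dnaja1 itself had the lower aged values given above. Hspa12b, an Hsp70-like gene of endothelial cells, was lower (-1.35 ± 0.25, adjusted p = 0.00112), and Hspa4l, an exchange factor like Hsph1, higher (1.252 ± 0.34, 0.0147). In pericytes Hspa2 (2.00 ± 0.29, adjusted p = 0.00125), the small heat-shock gene Hspb2 (1.16 ± 0.32, 0.0302) and the Hsp90 cochaperone Ptges3 (0.94 ± 0.24, 0.0237) were higher.

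In HS cells the J-proteins Dnajb4 (0.97 ± 0.16, adjusted p = 0.00738) and Dnaja4 (0.93 ± 0.23, 0.0403) and Hspa4l (0.96 ± 0.25, 0.0469) were higher. In AV cells Dnaja4 alone of 61 was called (1.15 ± 0.27, adjusted p = 0.0353), beside 2.9% of all genes called higher and 3.26% lower. Fibroblasts had 0 calls among 46 listed genes by edgeR, beside the calls of Hspa1a and Hspa1b. Of all genes tested in fibroblasts, 2.07% were called higher and 1.11% lower. No listed gene was called in the same direction in 4 or more types; Dnaja4, Dnajb4 and Ptges3 were each higher in 3.

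Among 13 immediate-early genes, Ier3, an early stress gene, was higher in 5 types (by 0.92 in pericytes to 2.00 in vascular endothelial cells), and Fosb, an AP-1 subunit, lower in 4 (by -1.29 in fibroblasts to -1.53 in vascular endothelial cells). Vascular endothelial cells had 3 called higher and 3 lower, beside 14.7% and 12% of all genes tested there. Myoepithelial cells had 2 and 3, beside 12.8% and 14.8%, and HS cells 1 and 0, beside 3.93% and 2.33%. The summed immediate-early genes overlapped between the ages in AV cells (25726 to 39538 CPM young, 21626 to 32017 aged), fibroblasts (21642 to 30334, 16979 to 36882) and pericytes (21439 to 25569, 22334 to 30381).

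Across the 56 sums of mouse and type, the members were most alike in pairs: Hspa1a with Hspa1b (Pearson r = 0.84 on log2(CPM + 1)) and with Dnajb1 (0.78). The median over 45 pairs was 0.446 and the lowest was Hspa8 with Hspd1 (-0.189). Of 7306 other genes with a mean of at least 10 CPM, the closest to Hspa1a were Jun (0.727), Dusp8 (0.722) and Tra2a (0.718), and to Hspa1b Rnd3 (0.743), Dusp8 (0.737) and Fos (0.734). Dnajb1 was closest to Egr1 (0.772), Junb (0.769) and Ier2 (0.765), and Hspa8 to Ccnl1 (0.733), Junb (0.707) and Sertad1 (0.701). Thus the neighbours of these 4 included AP-1 and other immediate-early genes.

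Hspb1 was closest to Tra2a (0.807), Tm4sf1 (0.805) and Csrp1 (0.774), and Hsp90aa1 to Ctgf (0.677), Col12a1 (0.631) and Col9a2 (0.626). Dnaja1 was closest to Ing2 (0.805), Mxd4 (0.745) and Ttc28 (0.732), and Hsph1 to 4932438A13Rik (0.829), Fam8a1 (0.797) and Usp36 (0.785). Hspd1 was closest to Cct4 (0.869) and Cct5 (0.854), subunits of the cytosolic chaperonin TRiC, and to Pdap1 (0.854), and Hspe1 to Rpl22l1 (0.593), Tmem258 (0.579) and Ndufa11 (0.567). The sums share mice and cell types, so these values describe likeness only.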

How the data were processed

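Mammary cells of 3 young and 4 aged mice were sequenced with 10× Chromium 3′ chemistry, and the authors made the deposited UMI counts with Cell Ranger 2.0 on mm10, merged the 7 libraries, and deposited a raw count matrix of filtered cells with a table of each cell's mouse and cell type. That table also holds the mitochondrial fraction of each cell, computed by the authors as a share of its UMIs. Cell types are the deposited ones; doublets were neither called nor removed here, and free RNA was not subtracted.

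UMIs were summed per mouse and cell type where a mouse had at least 3 cells. Differences with age were tested with edgeR's quasi-likelihood test (edgeR 4.0.16, R 4.3.3; filterByExpr, TMM) within each of 8 cell types, with p-values adjusted by Benjamini-Hochberg over all genes tested in the type. A gene was called at an adjusted p under 0.05 and at least 1.5-fold. Every adjusted p for age comes from this test unless DESeq2 (1.42.0) is named, and ± beside a log2 difference is its standard error. Differences between types in the effect of age were tested by an F test of the type-by-age terms in the same tool. The replicate is the mouse, and the labels do not pair mice. Levels are CPM without TMM factors, and thinned values use 2000 UMIs per cell (0 cells had fewer). Limits from counts of 0 take 3 counts and cover counting error only.

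Named from the other chaperones were, in each type, the 3 called genes with the largest change and no overlap between ages, and any called in 1 direction in at least 4 types; from the immediate-early list, those called in 1 direction in at least 4 types; and for each member the 3 genes of highest Pearson r of log2(CPM + 1), from genes with a mean of at least 10 CPM. The members, lists and tests were chosen with earlier results of these data known. Alternatives were DESeq2, RLE factors, library totals, no filter, at least 10 cells, dropping the fold minimum or asking it also (at 1.25) of each of the 12 young and aged pairs, a replicate block, thinning to equal totals, G1 cells, cells under 5% mitochondrial RNA, no ribosomal protein or mitochondrial genes, Hspa1a and Hspa1b summed, and leaving out each mouse.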

Additional observations from a re-analysis of the deposited data

Results flagged for a closer look

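In 10 of the 80 combinations of a gene and a cell type, 1 of the 4 aged mice lay far from the other 3 by Dixon's test. Chance gives about 1 in 20 for normally distributed values. These CPM share mice and rest in part on few cells, so that rate need not hold here. In T and B cells all 3 were Aged D, a sum of 6 cells: Hspb1 was 5225 CPM against 146 to 581 CPM in the other aged mice, Hspa1a 2163 against 39.5 to 323 CPM and Dnajb1 1376 against 96.9 to 256 CPM. In that sum, RNA of 36 marker genes of other types was 1.12% of UMIs, 27 of the 36 being at 0, against 0.0755% to 0.452% in the other aged mice, and its part in the 3 values was not tested. In Mb macrophages Hspa1a was 5843 CPM in Aged B, from 175 UMIs in 6 cells, against 0 to 574 CPM in the others.

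Aged A was low for the mitochondrial pair: Hspe1 was 198 CPM in its myoepithelial cells against 273 to 283 CPM and 214 CPM in its HS cells against 324 to 331 CPM, and Hspd1 was 133 CPM in its myoepithelial cells against 162 to 166 CPM. Hspe1 was 677 CPM in the 17 fibroblasts of Aged D against 266 to 334 CPM. Aged D also held the lowest Dnaja1 in myoepithelial cells, 201 CPM against 270 to 283 CPM, and the highest Hspa8 among aged vascular endothelial cells, 4432 CPM against 3924 to 3948 CPM. All 4 aged values of Dnaja1 there stayed below the young range of 577 to 752 CPM, and the Hspa8 value lay within the young range of 4345 to 5189 CPM.

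The effect of age differed between the 8 cell types by edgeR's F test for Hspa1b (F = 4.53), Dnaja1 (F = 4.204) and Hspa1a (F = 2.99), with the adjusted p-values given above.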

How the results depend on the processing

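Called differences of the 10 members kept their sign in all 237 values under the alternatives and their call in 186. Of the 57 differences not called, 13 were called under some alternative. Dropping the fold minimum, the minimum for pairs and at least 10 cells left the called differences unchanged, so their sign could not turn there. Dropping the fold minimum or asking for at least 10 cells could not lose these calls either. The counts of alternatives given above include these settings. The 10 members' calls higher fell to 4 when a fold minimum was also set for each of the 12 comparisons of 1 aged with 1 young mouse and to 5 with the replicate block, and ran from 5 (without Young A) to 12 (without Aged A or Aged C) when a mouse was left out. Calls lower were 4 with library totals or thinned totals and 1 with the minimum for pairs, the block or G1 cells, and 1 to 2 without a mouse. Of the wider list, 29 calls higher became 12 with library totals, 14 in G1 cells, 16 with the minimum for pairs or thinned totals and 18 with the block, and 15 to 29 without a mouse; 7 lower became 17 with library totals, and 6 to 8 without a mouse. Members whose effect of age differed between types rose from 3 to 7 with RLE factors and to 5 with library totals, no filter, at least 10 cells (6 types) or G1 cells (7 types), and were 2 to 7 without a mouse. Hspa1a in myoepithelial cells turned from -0.19 to 1.29 in cells under 5% mitochondrial RNA, and ran from -0.63 to 0.99 without a mouse. In cells under 5% mitochondrial RNA the pericyte calls of Hspa8 (adjusted p = 0.110) and Hspa1b (0.0865) were lost. The difference between types was lost for Dnaja1 with no filter (0.0841) and for Hspa1a without ribosomal protein and mitochondrial genes (0.0593). Calls lost without a mouse are named with their genes above; the cause was not tested. Letters did not pair the mice: 3 of 24 correlations of same-letter deviations exceeded 0.1 (-0.174 to 0.372), and 2 of 24 young sums correlated best with their own letter, so the replicate block says nothing of an effect's size. Depth limits Mb macrophages and T and B cells, whose sums of 3 to 90 cells allow up to 123 and 177 CPM at a count of 0.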
